A study of Mus musculus with 6 samples.

Results

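The genes described here are 9 genes listed as purinergic and adenosine genes of T follicular helper (Tfh) cells, namely *P2rx7*, *P2rx4*, *Nt5e*, *Entpd1*, *Adora2a*, *Izumo1r*, *Ada*, *Dpp4* and *Cd38*. All but *Izumo1r*, of the folate receptor family, are listed for the handling of extracellular ATP, NAD or adenosine. The 9 genes were chosen by name from a table of 14744 genes, and all 9 were in the table and passed the filter on low values. Tfh cells, the helper T cells of germinal centers, were sorted by the study as CD4+B220-CD44+PD-1+CXCR5+ cells, with 10000 to 30000 cells a sample, from the mesenteric lymph nodes (MLNs), which drain the gut. RNA was sequenced in 3 WT samples and in 3 samples of *Bach2* fl/fl mice with Cd4-Cre, to ask how Tfh cells differ when the transcription factor Bach2 is deleted in T cells. Mice were 2 to 3 months old and of the C57BL/6 strain, for which the study's methods give a C57BL/6J background. In the study the WT mice were Cd4-Cre littermates, so that Cre was shared by both groups where that design was followed. Cd4-Cre acts in all cells that pass through a CD4+ stage, regulatory T cells included, and Foxp3 was not part of the gate, so follicular regulatory T (Tfr) cells could be among the sorted cells. The labels do not say whether replicates were separate mice, so p-values measure the spread between these samples, which may be technical.

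ATP released from stressed or activated cells opens the channels P2X7 and P2X4, encoded by *P2rx7* and *P2rx4*. The surface enzymes CD39 (*Entpd1*) and CD73 (*Nt5e*) convert ATP step by step to adenosine, which signals through the receptor encoded by *Adora2a* and is removed by adenosine deaminase (*Ada*), a protein that binds CD26 (*Dpp4*) on human T cells. In the mouse, the enzyme ART2.2 (*Art2b*) uses NAD to modify and open P2X7, and CD38 (*Cd38*) breaks down NAD. P2X7 is known to limit the number of Tfh cells in the gut's Peyer's patches, and high FR4 (*Izumo1r*), a member of the folate receptor family, together with CD73 marks Tfh cells, regulatory T cells and anergic CD4+ T cells.

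The values are normalized read counts, which are gene counts divided by a size factor of each library. Recovered depth was 6585742 and 7823717 reads in WT replicates 2 and 3, and 5045131, 10987752 and 7197242 reads in replicates 1, 2 and 3 labelled Bach2-cKO. Values of WT replicate 1 summed to 7809702 normalized counts. In this library 11648 genes were above 0, while the other libraries had between 13111 and 13567, and for this reason the log2 fold changes of the 9 genes without it are given below.

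The targeted gene was examined first. *Bach2* was at 233, 222 and 105 normalized counts in WT replicates 1, 2 and 3 and at 399, 763 and 591 in the replicates labelled Bach2-cKO. It was thus higher in all 3 libraries labelled Bach2-cKO than in any WT library. By limma it differed by 1.68 on the log2 scale (standard error, SE, 0.37, adjusted p = 0.141), by DESeq2 by 1.81 (adjusted p = 0.00123), and by limma by 1.15 once a trend in transcript length and GC content was taken off. The values are sums over the whole gene, in which deleted exons cannot be seen, and the antisense gene *Bach2os* overlaps it, from which it cannot be told apart if reads were counted without strand. These sums thus run against the label and do not show whether the deletion is present. The libraries are therefore called libraries labelled Bach2-cKO throughout, and every direction below is one between labels. By flow cytometry, the paper reports a shift from Tfr toward Tfh cells among follicular T cells when Bach2 is deleted in T cells. From its RNA sequencing, the source of the values used here, it reports lower Foxp3 and IL17-f mRNA in Bach2-deficient Tfh cells. *Foxp3* and *Il17f* were below WT without overlap in the libraries labelled Bach2-cKO, with log2 fold changes of -1.76 and -4.70 by limma. These are the same data under the same labels, so the match in *Foxp3* and *Il17f* is no check of the labels. Whether the labels are right was not tested. As for the labelled cell type, 12 of 12 Tfh marker genes were above 0 in all 6 libraries, with *Sh2d1a* the most abundant over all 6 and *Cd4* at 2407 to 4131 normalized counts. All 10 regulatory T cell and Tfr genes and all 8 naive T cell genes listed were above 0 too. In each library 11648 to 13567 of 14744 genes were above 0, so this count does not single out Tfh cells. Of the 12 Tfh genes, 4 lay above WT and 2 below without overlap, against 14.6% and 12.2% of all genes tested. Those above were *Cd4*, *Bcl6*, *Cd44* and *Tox2*, with log2 fold changes of 0.49, 0.74, 0.93 and 1.10, and those below *Cd3e* and *Icos*, with -1.02 and -1.03. The part of such differences in the values below was not tested.

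Differences between groups were tested with limma on log2(normalized count + 1) over the 11296 genes that reached 10 in 3 or more libraries. The added 1 draws the log2 fold changes of genes with low values toward 0, while a very low value in 1 library can enlarge them. That of *Adora2a* was 0.98, and 0.37 without WT replicate 1. At an adjusted p under 0.01 and more than 2-fold, limma called 0 genes of either direction (0% of those tested), with 0.141 as the smallest adjusted p. At an unadjusted p under 0.05, 1 of the 9 genes was higher in the libraries labelled Bach2-cKO and 2 were lower, against 10.1% of all genes tested higher and 10.2% lower. The groups did not overlap for the same 3 genes, *P2rx7* above WT and *Dpp4* and *Cd38* below it. Among all genes tested, 14.6% lay above WT without overlap and 12.2% below. On recovered reads of 5 libraries, edgeR called 0 genes, with 9.48% of genes higher and 8.7% lower at an unadjusted p under 0.05, and again with *P2rx7* higher and *Dpp4* and *Cd38* lower. DESeq2 on the same reads called 33 genes higher (0.296%) and 54 lower (0.484%), and *Dpp4* and *Cd38* were among the latter. The median log2 fold change was -0.53 over the 9 genes and 0.08 over all genes tested. A 2-sided exact permutation test of 3 libraries against 3 cannot give a p under 0.1.

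**Figure D1:**
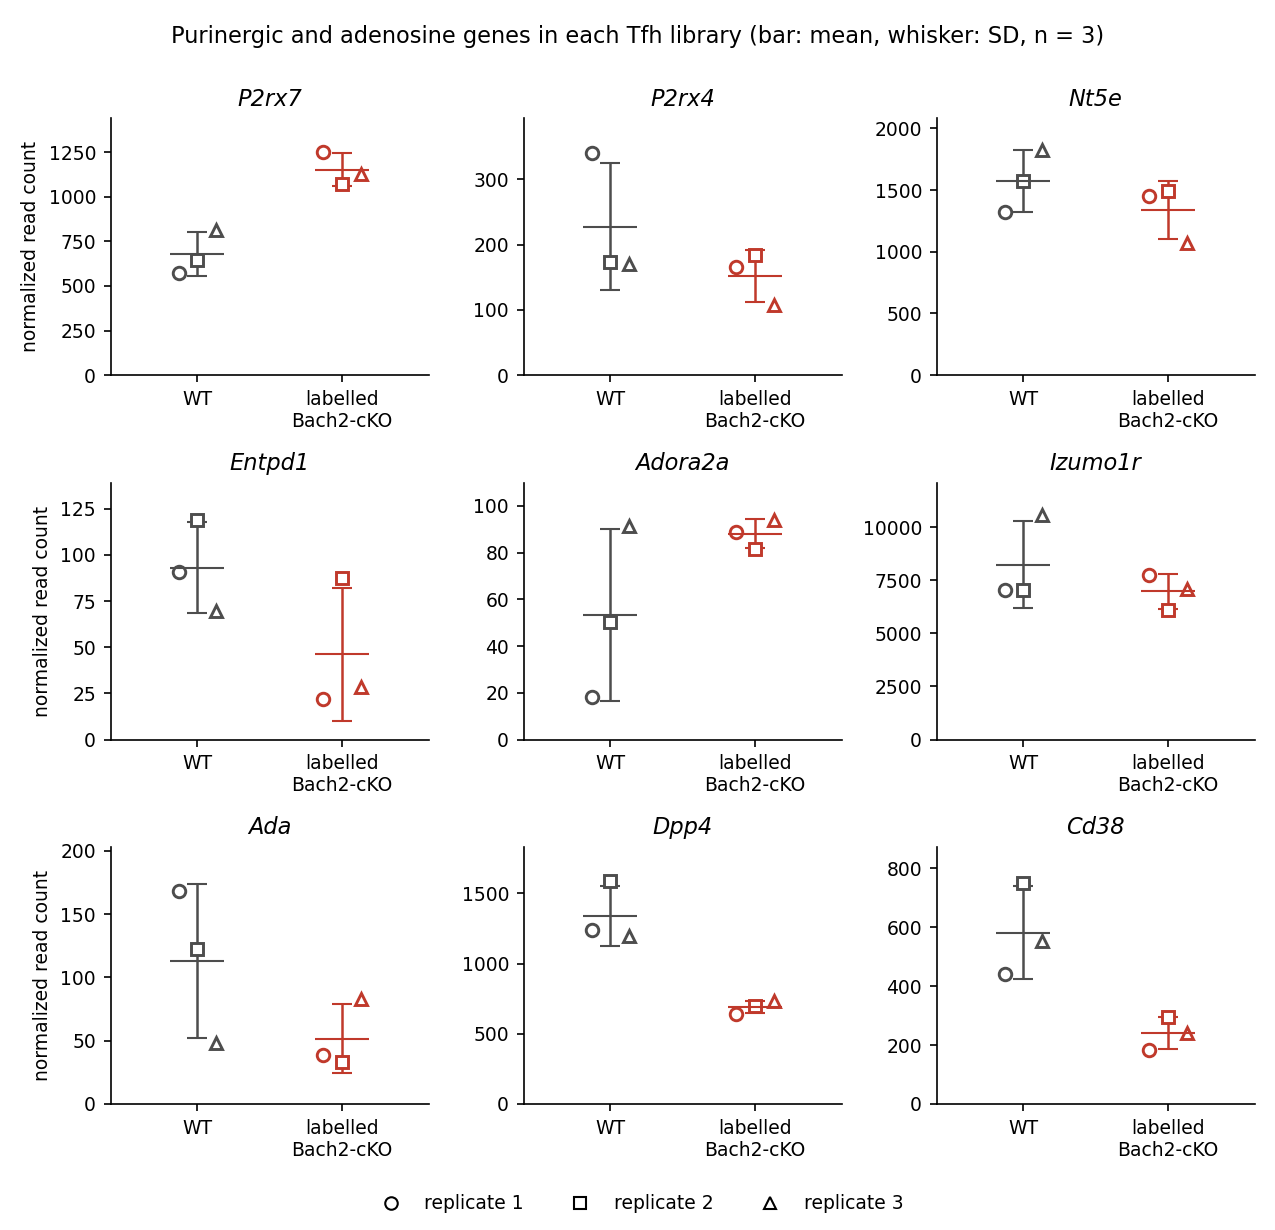
Normalized read count (y axis, from 0) of each of the 9 genes in the WT libraries and the libraries labelled Bach2-cKO, with a marker shape for each replicate number, a horizontal bar for the mean and whiskers for the SD (n = 3). The groups are apart for *P2rx7*, *Dpp4* and *Cd38*, and overlap for the other 6 genes.

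*P2rx7* was the member that stood higher in the libraries labelled Bach2-cKO without overlap. Its normalized count was 575, 648 and 815 in WT replicates 1, 2 and 3, and 1252, 1073 and 1130 in the replicates labelled Bach2-cKO. The highest WT library was thus below the lowest library of the other group, and the mean was 1.69 times that of WT, at 1152 ± 91.4 against 680 ± 123 (SD, n = 3). Limma put the difference at 0.77 on the log2 scale (SE 0.21, 95% CI 0.30 to 1.24, adjusted p = 0.144), where CI is the confidence interval. It was 0.66 without WT replicate 1, 0.63 with DESeq2 (adjusted p = 0.140) and 0.32 after removal of the length and GC trend, where its unadjusted p was no longer under 0.05 (limma adjusted p = 0.492). Over all 18 settings its adjusted p ran from 0.0114 to 0.501. Across 11268 genes, Spearman's rho between log2 fold change and transcript length was 0.32, where genes are not independent replicates, and the longest transcript of *P2rx7* has 4936 bases. Fewer cells of a type and less RNA per cell cannot be told apart in these sorted populations, for this gene and those below.

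*P2rx7* lies on the plus strand of chromosome 5 of GRCm38 from 122643911 to 122691432. *P2rx4* follows it on the same strand from 122707544 to 122729738. The neighbouring gene had 340, 173 and 171 normalized counts in WT and 166, 184 and 107 in the libraries labelled Bach2-cKO. WT replicate 1 stood alone at the top, and the other 5 libraries overlapped. *P2rx4* differed by -0.53 on the log2 scale (95% CI -1.38 to 0.31, limma adjusted p = 0.421), -0.21 without WT replicate 1 and -0.01 with library weights. The ratio of *P2rx7* to *P2rx4* within a library, in which size factors cancel, was 1.69, 3.75 and 4.78 in WT and 7.56, 5.82 and 10.5 in the libraries labelled Bach2-cKO. Each ratio of the latter group was above each WT ratio.

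The genes outside the purine list whose log2 values were most like those of *P2rx7* over the 6 libraries were *Appbp2os*, *Irf3*, *Ncoa5*, *Ptp4a2* and *Dtx1*, each with Pearson's r of 0.99. Like *P2rx7*, *Dtx1* was lower in WT, at 304, 316 and 432 normalized counts, than in the libraries labelled Bach2-cKO, at 627, 576 and 547. *Irf3* spanned less, at 415, 421 and 460 normalized counts in WT and 508, 499 and 499 in the other group. These r values describe the closest of 11296 genes over the same 6 libraries and share their depth and length trends.

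Promoter sequences are shown for *P2rx7* and *Dpp4*, genes whose groups were apart in opposite directions. They are the 250 bases before the RefSeq start, which the promoter table gave for 8 of the 9 genes in 10 windows. The letters searched were TGAGTCA and its reverse complement TGACTCA, the core of the element that BACH2 with small MAF proteins, and AP-1 factors, are known to bind. Of the 10 windows only the first of *P2rx7*, chr5:122643677-122643926 on the plus strand of GRCm38.p6, held them, starting 249 bases before the start and in capitals here, while the window of *Dpp4*, chr2:62412232-62412481 on the minus strand, held none. Of 32851 promoter windows of this length 4.46% held these letters on either strand, and 3.22% of the 13716 windows of genes in the table. A match describes the letters and is not a binding site, and the P2rx7 window runs at its end into the first exon of the GENCODE gene.
P2rx7: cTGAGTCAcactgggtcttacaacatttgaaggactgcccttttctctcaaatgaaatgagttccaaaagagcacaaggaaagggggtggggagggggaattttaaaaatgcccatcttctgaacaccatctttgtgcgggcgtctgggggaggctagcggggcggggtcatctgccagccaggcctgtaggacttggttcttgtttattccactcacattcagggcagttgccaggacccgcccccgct
Dpp4: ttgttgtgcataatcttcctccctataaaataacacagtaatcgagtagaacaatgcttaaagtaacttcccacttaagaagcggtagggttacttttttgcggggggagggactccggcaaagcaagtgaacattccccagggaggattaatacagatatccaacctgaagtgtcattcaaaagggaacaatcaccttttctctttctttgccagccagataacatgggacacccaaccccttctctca

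The enzymes that consume NAD at the cell surface come next. *Cd38*, on the plus strand of chromosome 5 from 43868553 to 43912375, was at 441, 750 and 552 normalized counts in WT replicates 1, 2 and 3 and at 185, 294 and 242 in the replicates labelled Bach2-cKO. All 3 libraries labelled Bach2-cKO were below the lowest WT library, and the WT mean was 2.42 times that of the other group, at 581 ± 157 against 240 ± 54.7 (SD, n = 3). By limma this was a log2 fold change of -1.26 (SE 0.29, 95% CI -1.91 to -0.61, adjusted p = 0.141). *Cd38* passed both thresholds with DESeq2, at -1.46 (adjusted p = 0.00183), and when limma weighted the libraries, at -1.11 (adjusted p = 0.00124). The weighted setting called many genes, 567 lower of 11296 tested. Over all 18 settings the adjusted p of *Cd38* ran up to 0.501. *Cd38* was lower in all of them, and without WT replicate 1 the log2 fold change was -1.44.

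The ratio of *P2rx7* to *Cd38* within a library was 1.30, 0.86 and 1.48 in WT and 6.78, 3.65 and 4.66 in the libraries labelled Bach2-cKO. Size factors cancel in these ratios too, and their separation follows from the values of the 2 genes given above. *Art2b*, of the enzyme that opens P2X7, had 1668, 2425 and 2709 normalized counts in WT and 1525, 1575 and 2188 in the libraries labelled Bach2-cKO, which overlapped. *Art2a-ps*, a near-identical neighbour, had 607, 1022 and 1617 normalized counts in WT and 1593, 2039 and 1306 in the other group, and reads of this pair may have been split by the counting, so both values are uncertain.

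*Dpp4* was the other gene below WT. It lies on the minus strand of chromosome 2 from 62330073 to 62412231, and had 1240, 1587 and 1197 normalized counts in WT replicates 1, 2 and 3 and 641, 699 and 730 in the replicates labelled Bach2-cKO. The 3 latter values lay close together and below every WT value, and the WT mean was 1.94 times that of the other group, at 1342 ± 214 against 690 ± 45.1 (SD, n = 3). Limma gave -0.95 on the log2 scale (SE 0.20, 95% CI -1.40 to -0.49, adjusted p = 0.141). With DESeq2 it was -1.04 (adjusted p = 0.00803) and past both thresholds, while over all 18 settings the adjusted p ran from 0.000722 to 0.501. The gene was lower in each of those settings, at -0.999 without WT replicate 1 and between -1.02 and -0.82 with single libraries left out. With the length and GC trend removed *Dpp4* was at -1.18, and its longest transcript has 5268 bases. *Gm13561*, which is not in the table, overlaps it on the opposite strand.

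*Ada*, the deaminase itself, was at 169, 122 and 47.8 normalized counts in WT and at 38.4, 33.5 and 82.8 in the libraries labelled Bach2-cKO. WT replicate 3 lay among the libraries of the other group, so the groups overlapped. *Ada* had a log2 fold change of -1.05, with a 95% CI from -2.36 to 0.26 (limma adjusted p = 0.325). Single libraries moved this value, to -0.68 without WT replicate 1 and -1.58 without WT replicate 3. Recovered reads were few, from 26 to 109 in the 5 libraries.

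**Figure D2:**
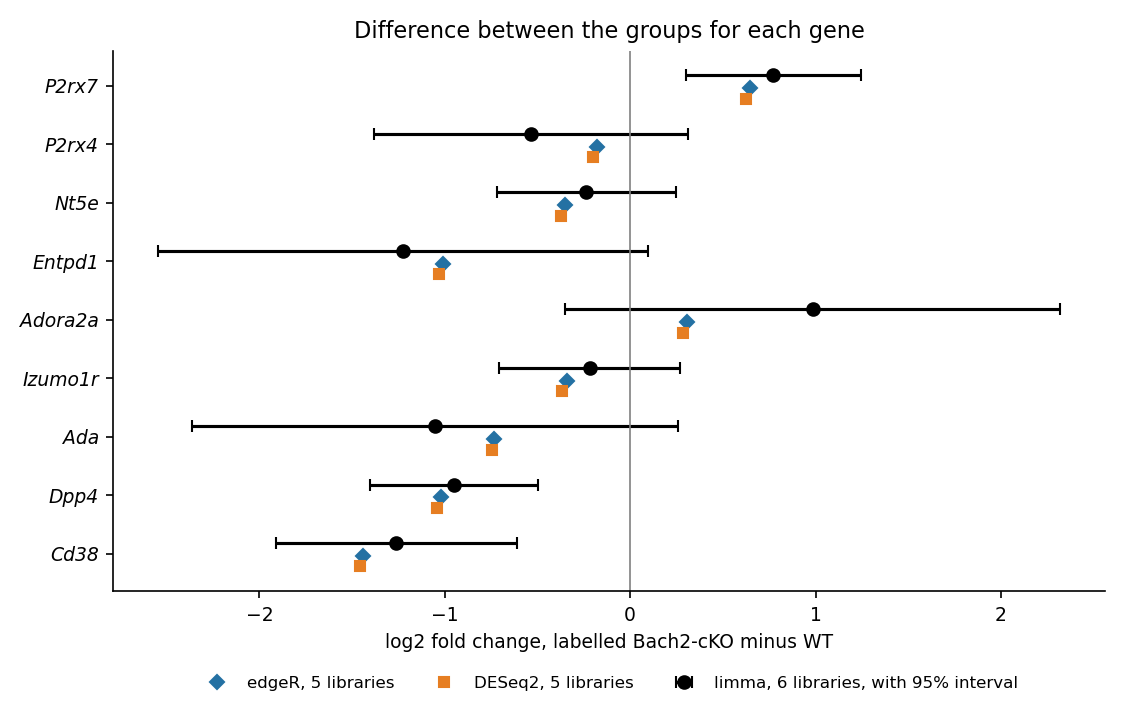
Log2 fold change (x axis, labelled Bach2-cKO minus WT) of each gene from limma on 6 libraries with its 95% confidence interval, and from edgeR and DESeq2 on 5 libraries. The limma interval leaves out 0 for *P2rx7*, *Dpp4* and *Cd38*, and takes in 0 for the other 6 genes.

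The enzymes that make adenosine come next, and both overlapped between groups. *Nt5e*, of CD73, was at 1321, 1576 and 1821 normalized counts in WT and at 1453, 1490 and 1071 in the libraries labelled Bach2-cKO. Only replicate 3 labelled Bach2-cKO lay below the WT libraries, and the log2 fold change was -0.24 (95% CI -0.72 to 0.25, limma adjusted p = 0.533). Leaving out WT replicate 1 gave the largest difference of any 1 library left out, -0.36, and leaving out replicate 3 labelled Bach2-cKO the smallest, -0.08, and it was -0.37 with DESeq2, -0.12 with quantile normalization and -0.51 after removal of the length and GC trend, where its unadjusted p was under 0.05 (limma adjusted p = 0.303). *Entpd1*, of CD39, which acts before CD73, was at 90.8, 119 and 69.7 normalized counts in WT and at 22.2, 87.8 and 28.6 in the libraries labelled Bach2-cKO. Replicates 1 and 3 labelled Bach2-cKO were below all WT libraries, on 15 and 28 recovered reads, whereas replicate 2 lay within the WT range. For *Entpd1* the log2 fold change was -1.22 (95% CI -2.54 to 0.09, limma adjusted p = 0.270). It was -1.23 without WT replicate 1, -1.81 without replicate 2 labelled Bach2-cKO and -0.23 with library weights, which gave that replicate a weight of 5.54. The ratio of *Nt5e* to *Entpd1* was 14.5, 13.3 and 26.1 in WT and 65.5, 17.0 and 37.4 in the libraries labelled Bach2-cKO, so that it also overlapped.

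*Adora2a*, the only adenosine receptor gene past the filter, had 18.2, 50.5 and 91.5 normalized counts in WT and 88.7, 81.7 and 94.1 in the libraries labelled Bach2-cKO. The latter 3 were close together, and the WT libraries ranged from well below them to within their range. *Adora2a* differed by 0.98 on the log2 scale (95% CI -0.35 to 2.32, limma adjusted p = 0.359). It was 0.22 with library weights, 0.37 without WT replicate 1, the lowest library, and higher than in the main setting without WT replicate 3, the highest WT library. *Izumo1r*, of FR4, was at 7048, 7054 and 10580 normalized counts in WT and at 7739, 6107 and 7088 in the other group. WT replicate 3 stood above the other 5 libraries, which were mixed, and the log2 fold change was -0.22 (95% CI -0.71 to 0.27, limma adjusted p = 0.577), -0.02 without that library, -0.31 without WT replicate 1 and -0.54 with library weights (limma adjusted p = 0.0177). With these weights 22.8% of all genes tested were lower at an unadjusted p under 0.05 by limma.

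Apart from *P2rx7* and *P2rx4*, which are neighbours, the genes are not adjacent, with *Nt5e* on chromosome 9 from 88327197 to 88372092, *Izumo1r* on chromosome 9 from 14885814 to 14903949, *Entpd1* on chromosome 19 from 40612366 to 40741602, *Adora2a* on chromosome 10 from 75316877 to 75334784 and *Ada* on chromosome 2 from 163726584 to 163750239 of GRCm38. Levels were compared between genes per kb of the longest transcript. *Izumo1r* was the most abundant, at 6373 ± 1578 (SD, n = 3) normalized counts per kb in WT and 5405 ± 636 in the libraries labelled Bach2-cKO, above 99.0% of 11268 tested genes. *Nt5e* came next at 394 ± 62.5 and 335 ± 58.0 per kb. *Dpp4* followed at 255 ± 40.6 and 131 ± 8.55, *P2rx7* at 138 ± 24.9 and 233 ± 18.5, and *Cd38* at 178 ± 47.9 and 73.5 ± 16.7 per kb. In WT the order was thus *Dpp4*, *Cd38*, *P2rx7*, and in the libraries labelled Bach2-cKO *P2rx7*, *Dpp4*, *Cd38*. The 4 lowest were *P2rx4* at 58.5 ± 25.0 and 39.1 ± 10.3, *Ada* at 66.9 ± 36.1 and 30.6 ± 16.1, *Adora2a* at 20.6 ± 14.2 and 34.0 ± 2.38, and *Entpd1* at 22.1 ± 5.85 and 10.9 ± 8.57 per kb. Over all 6 libraries the range of *Izumo1r* was clear of that of *Nt5e*, and the ranges of every other pair of neighbours in this order overlapped.

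**Figure D3:**
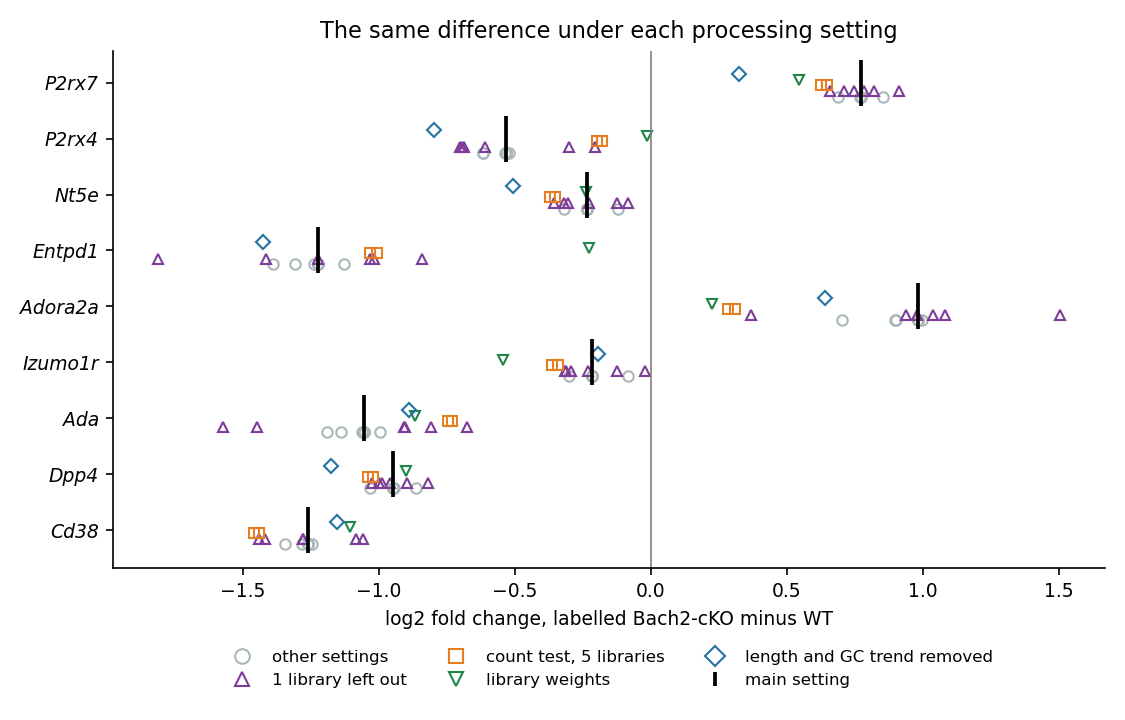
Log2 fold change (x axis, labelled Bach2-cKO minus WT) of each gene in the main setting (vertical bar) and in 18 other settings, by kind of setting. No gene changed direction, and *P2rx7* was lowest, at 0.32, with the length and GC trend removed.

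Beyond the 9 genes, 43 further genes were listed by role as purine genes, of which 31 were in the table and 23 passed the filter. The list also held *Folr1* and *Folr2* of the folate receptor family, which were not in the table. At an unadjusted p under 0.05, limma gave 1 of the 23 higher and 2 lower in the libraries labelled Bach2-cKO, against 10.1% and 10.2% of all genes tested. Without overlap 4 lay above WT and 1 below, against 14.6% and 12.2% of all genes tested. The median log2 fold change was 0.06, against 0.08 over all genes tested. None of the 23 was called by limma, edgeR or DESeq2.

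Among nucleoside transporters, *Slc29a1*, of the equilibrative transporter ENT1 that carries adenosine across the membrane, had 797, 470 and 751 normalized counts in WT and 420, 310 and 347 in the libraries labelled Bach2-cKO. All 3 of the latter were lower, with a log2 fold change of -0.88 (95% CI -1.48 to -0.28, limma adjusted p = 0.155) that was negative in 18 of 18 settings. *Slc29a3*, of the lysosomal transporter ENT3, had 9.08, 81.9 and 67.6 normalized counts in WT and 126, 137 and 92.0 in the other group, which did not overlap. *Slc28a2* overlapped, at 500 to 584 in WT and 535 to 745 in the libraries labelled Bach2-cKO.

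In adenosine removal and salvage, *Hprt*, which returns hypoxanthine to the nucleotide pool, was the most abundant, at 6826, 4540 and 5436 normalized counts in WT and 3189, 3803 and 4636 in the libraries labelled Bach2-cKO. The groups overlapped, and the log2 fold change of -0.53 became 0.04 with the length and GC trend removed. The AMP deaminase gene *Ampd3* had 33.3, 35.9 and 12.5 normalized counts in WT and 56.2, 66.3 and 73.6 in the other group, or 1.36 on the log2 scale (limma adjusted p = 0.237) and 0.89 without WT replicate 3. *Ampd2* was also above WT without overlap, at 119.7 to 124 against 84.2 to 112 normalized counts, but its log2 fold change of 0.37 became -0.27 with the length and GC trend removed.

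The last roles were ATP release, the P2Y receptors and further enzymes and channels. *Lrrc8a*, of a volume-regulated anion channel, was at 18.2, 37.0 and 37.4 normalized counts in WT and 82.8, 114 and 37.8 in the libraries labelled Bach2-cKO, just without overlap. *Panx1*, of the pannexin channel that releases ATP, ranged from 437 to 761 in WT and from 432 to 697 in the other group, and *Slc17a9*, of the vesicular nucleotide transporter, from 27.2 to 132 and from 106 to 215. Of the genes listed as P2Y receptors, whose ligands were not examined, 6 of 8 were tested and 0 had an unadjusted p under 0.05 by limma. *P2ry10* was the most abundant of them, at 559 to 909 normalized counts in WT and 505 to 806 in the other group, and *P2ry13* came next, at 52.5 to 63.4 and 14.3 to 64.3. *Enpp1*, an enzyme that cleaves ATP to AMP, ranged from 38.4 to 188 in WT and from 182 to 243 in the libraries labelled Bach2-cKO. Other ATP-gated channel genes in the table, *P2rx3* and *P2rx5*, were at 0 in 5 of 6 libraries each.

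**Figure D4:**
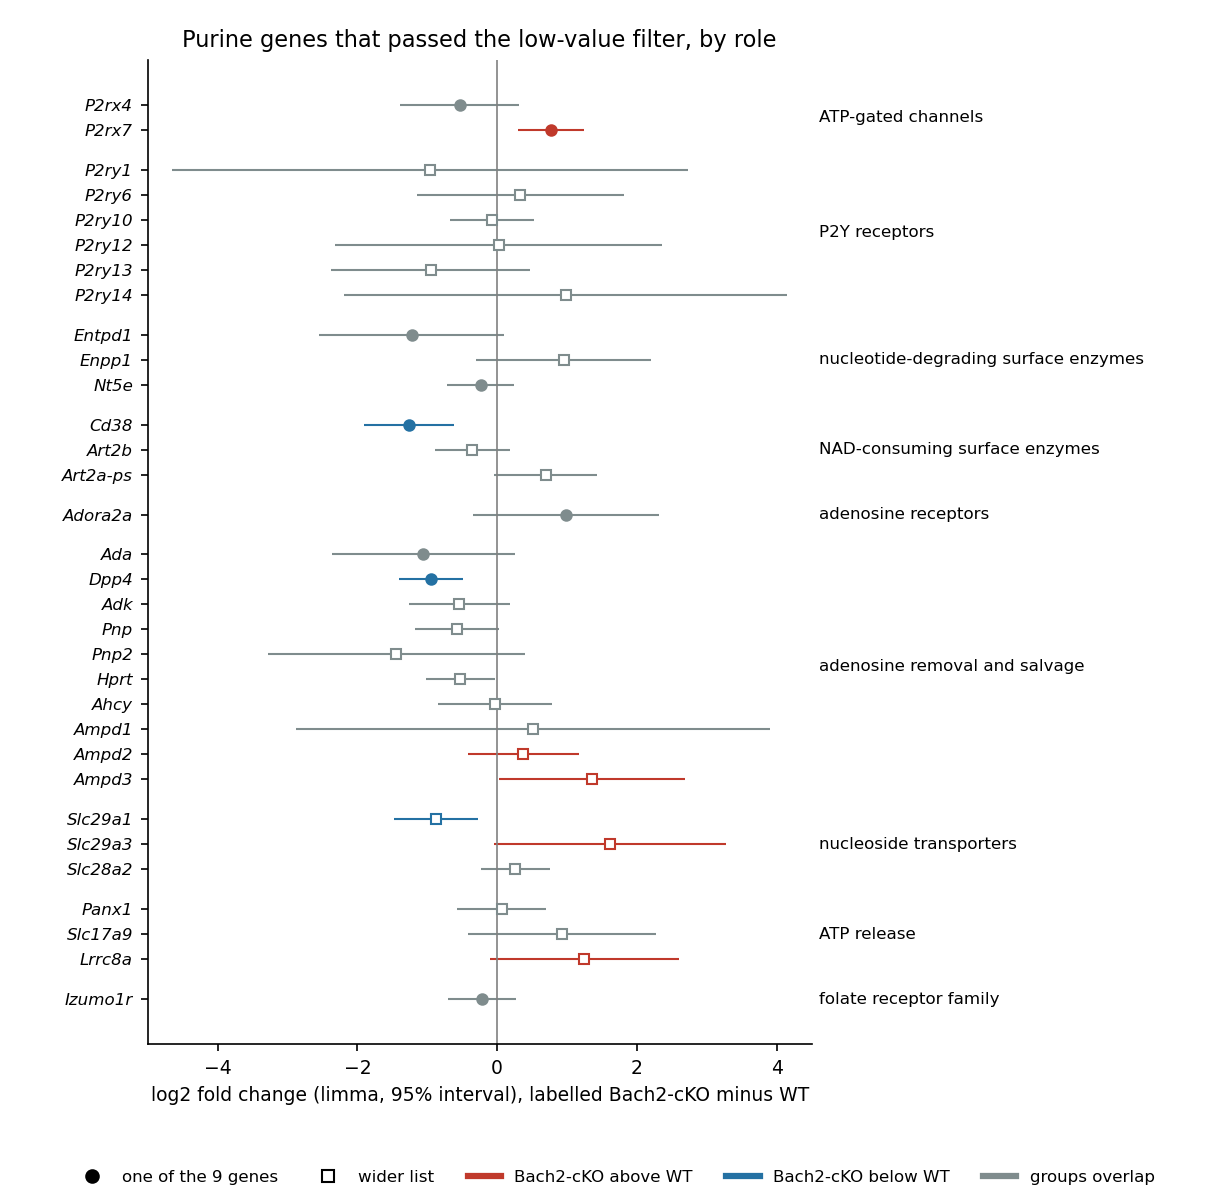
Log2 fold change (x axis, labelled Bach2-cKO minus WT) with the limma 95% confidence interval for the purine genes that passed the low-value filter, grouped by role, with filled circles for the 9 genes and open squares for the wider list. Red marks groups apart with Bach2-cKO above WT, blue below WT and grey overlap, and most genes are grey.

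Markers of other cells that the gate could hold moved with some of these values. Of 10 regulatory T cell and Tfr genes, 0 were higher and 3 lower in the libraries labelled Bach2-cKO at an unadjusted p under 0.05 by limma, where 10.2% of all genes tested were lower. Below WT without overlap lay 4, against 12.2% of all genes tested, while the other 6 overlapped, *Ikzf2*, *Nrp1*, *Il2ra* and *Lrrc32* with negative log2 fold changes and *Itgae* and *Gpr83* with positive ones. *Foxp3*, of the factor that defines these cells, was at 222, 315 and 344 normalized counts in WT and 47.3, 140 and 91.0 in the libraries labelled Bach2-cKO. The list summed to 9409, 8781 and 11196 in WT and to 8479, 7539 and 6910 in the other group, with *Ikzf2* the most abundant. *Foxp3* was thus lower in the same libraries as *Cd38* and *Dpp4*. Of the 7 Th17 genes, 6 were tested, and 3 of them were lower at an unadjusted p under 0.05. That list summed to 1586, 897 and 669 in WT and 638, 328 and 339 in the other group, with *Il1r1* the most abundant over all 6 libraries and *Il17a*, *Il23r* and *Il22* at 0 in at least 1 library. *Il1r1* had a log2 fold change of 0.64, with overlap, and the other 5 genes tested had negative ones. In WT the mean of *Il1r1*, 196, was below that of *Ccr6*, 381, and that of *Il17f*, 297. *Il17f* and *Ccr6*, named after their values were seen, carried much of the lower sum, *Il17f* at 645, 183 and 64.5 normalized counts in WT and 13.3, 4.02 and 5.11 in the other group, and *Ccr6* at 645, 273 and 227 in WT and 59.1, 62.3 and 50.1. The part of regulatory and Th17 cells in the values of *Cd38*, *Dpp4* and *Entpd1* was not tested.

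The gate, CD4+B220-CD44+PD-1+CXCR5+, would leave out most cells of the lists that follow, and their sums describe transcripts in the libraries whatever their source. Myeloid cells are known to express *Entpd1* and *P2rx4*, and the myeloid list summed to 2694, 9724 and 4889 normalized counts in WT and to 3244, 7627 and 2294 in the libraries labelled Bach2-cKO. *Lyz2* led the list, and *Itgam* was the only one of its 9 genes at 0 in a library. *Entpd1* and this sum were each highest in WT replicate 2 and in replicate 2 labelled Bach2-cKO within their group, whereas *P2rx4* was highest in WT replicate 1, the WT library with the lowest myeloid sum, and in replicate 2 labelled Bach2-cKO. The plasma cell list summed to 612, 29405 and 7361 in WT and to 2749, 1006 and 878 in the other group, of which *Jchain* gave 316, 28803 and 6972 in WT and 2075, 472 and 484, while *Sdc1* and *Tnfrsf17* were at 0 in at least 1 library. The 8 B cell genes used summed to 242, 884 and 597 in WT and to 466, 403 and 364 in the other group, led by *Cd79b*, with *Ebf1*, *Blnk* and *Fcer2a* at 0 in at least 1 library. The 8 naive T cell genes summed to 12147, 12995 and 9698 in WT and 14011, 13899 and 12046 in the other group, led by *Tcf7*. Of these 8 genes, 4 had positive log2 fold changes and 4 negative ones. Without overlap 1 lay above WT, *Tcf7* at 0.50, and 1 below, *Dapl1* at -3.49, against 14.6% and 12.2% of all genes tested. The 6 genes of CD8+ T and NK cells summed to 797, 1400 and 988 in WT and 560, 905 and 580 in the other group, led by *Cd8b1*, with *Ncr1* and *Klrd1* at 0 in 1 library. The part of these cells in the values of the 9 genes was not tested.

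**Figure D5:**
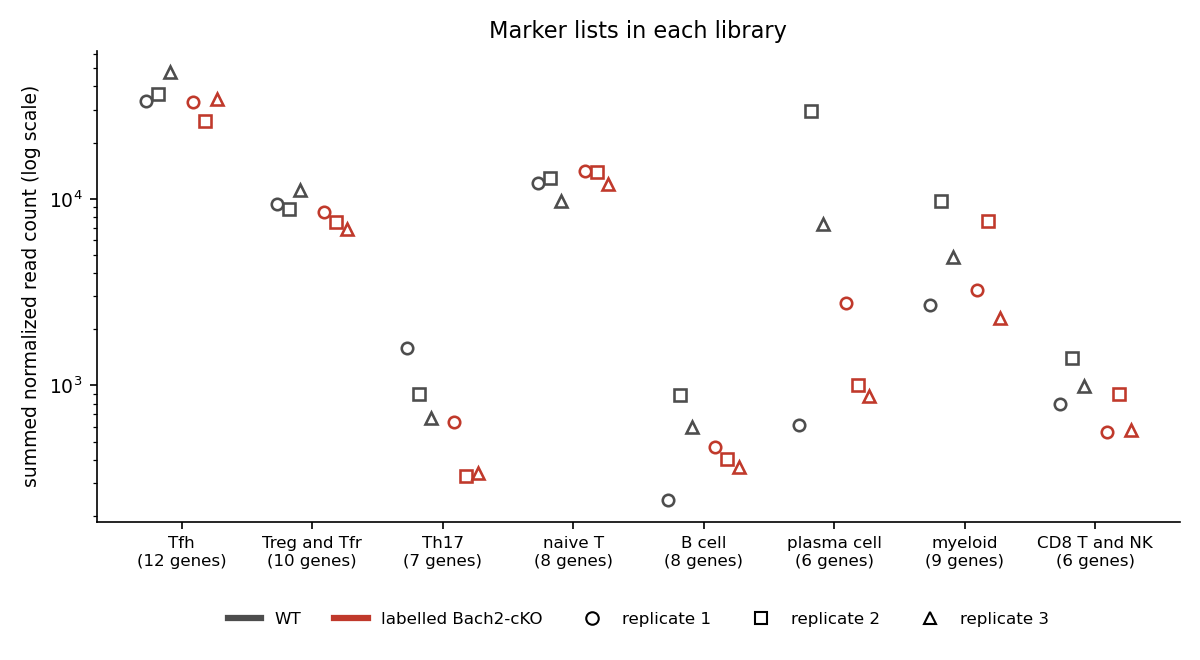
Summed normalized read count (y axis, log scale) of each marker list in each library, in grey for WT and red for the libraries labelled Bach2-cKO, with a marker shape for each replicate number. The Th17 sums of the libraries labelled Bach2-cKO lie below all WT sums, the regulatory T cell sums likewise, and among WT libraries the plasma cell sums differ most.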

How the data were processed

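Tfh cells sorted from the MLNs were sequenced in 3 WT and 3 Bach2-cKO samples, after cDNA amplification with the SMARTer Ultra Low kit. According to its methods, the study aligned reads with Tophat2, counted them with HTSeq and used DESeq2, whereas the submitters' processing notes name STAR 2.5.2b, R 3.5.1, DESeq2 1.20.0 and the build GRCm38 (mm10). The deposited values are a signal, gene counts that the authors divided by size factors, and neither counting by strand nor the annotation was given in the sources used here. No column was left out (0 columns not used).

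Limma 3.58.1 (R 4.3.3, variance trend) was fitted to log2(value + 1) of genes at 10 or more in 3 or more libraries, with Benjamini-Hochberg adjustment. In each library 100% of values were whole multiples of 1 step (tolerance 0.01). The recovered reads of 5 libraries were tested with edgeR 4.0.16 (quasi-likelihood) and DESeq2 1.42.0, in alternatives. WT replicate 1, with a step of 1.01 and 7737531 steps, was left out of these because the unit rule used for all libraries does not accept a step so close to a power of 10 as 1 read, although its values were not rounded. At this depth counting error matters for *Entpd1*, *Ada* and *Adora2a*, and PCR copies were not told apart. The fits were tested on simulated data.

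Lengths, GC content and positions came from GENCODE M21 on GRCm38, matched for 14329 genes by symbol and 368 by an older symbol, and promoters from RefSeq (GRCm38.p6). The 9 genes and all lists were chosen with earlier results of these data known. Genes named are these 9, further purine genes, *Bach2*, the most abundant and the first-listed gene of each marker list, and the 5 genes most like *P2rx7* by Pearson's r. Other marker and purine genes named were chosen after their values were seen. An item of the B cell list is not reported here and was left out of its sum. Alternatives were other pseudocounts, filters, normalizations, variance models, library weights, a replicate block, a length and GC trend (mgcv 1.9.3), another threshold, count tests and leaving out each library.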

Additional observations from a re-analysis of the deposited data

How the results depend on the processing

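None of the 9 genes changed direction in any of 18 settings. *Dpp4* and *Cd38* kept an unadjusted p under 0.05 in 18 of them and *P2rx7* in 17. With library weights limma called 561 genes higher and 567 lower of 11296 tested, where 24.3% were higher and 22.8% lower at an unadjusted p under 0.05. DESeq2 on 5 libraries called 33 (0.296%) and 54 (0.484%), against 0 and 0 in the main setting. *Dpp4* was called with DESeq2 (-1.04), and *Cd38* with DESeq2 (-1.46) and with library weights (-1.11). These weights ran from 0.206 for WT replicate 1 to 5.54 for replicate 2 labelled Bach2-cKO. Members higher at an unadjusted p under 0.05 numbered 1 in the main setting (10.1% of all genes tested), 0 after removing the length and GC trend (4.85%) and 1 to 2 with single libraries left out (4.18% to 13.3%), 2 being without WT replicate 3 (9.78%). Members lower numbered 2 in the main setting (10.2% of all genes tested), 3 with quantile normalization (10.8%), 3 with median rescaling (12.7%), 4 with library weights (22.8%) and 4 after removing the length and GC trend (9.66%). With single libraries left out they numbered 2 to 3 (5.37% to 14.3%), 3 being without WT replicate 3 (7.05%) or without replicate 2 (6.06%) or 3 (14.3%) labelled Bach2-cKO. Why these settings differed was not tested. With the replicate block, the calls stayed at 0 higher and 0 lower, and *P2rx7* had an adjusted p of 0.222 by limma. Same-numbered libraries had deviations from their group means correlated at -0.07, 0.12 and -0.04 across genes. Differently numbered libraries ranged from -0.145 to 0.117. With so few libraries, these values cannot tell whether the numbers pair them. The scalings moved the median log2 fold change of all genes from 0.08 to -0.04 with the length and GC trend removed. Low depth limits *Entpd1*, *Ada* and *Adora2a*.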
